A study of Rattus norvegicus with 18 samples.

Results

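The 8 chains of the collagen fibril and of the pericellular collagen network described here were followed with age in the rat nucleus pulposus, the soft centre of the intervertebral disc: Col1a1 and Col1a2 of type I, Col3a1 of type III, Col5a1 and Col5a2 of type V, and Col6a1, Col6a2 and Col6a3 of type VI collagen. The chains were chosen by gene name from the gene table, in which 6 of the 8 names were found among 18923 genes. The other 2 chains were found by the description that the table gives them. Col6a3 stands under a placeholder name, and Col1a2 stands under a placeholder name on 2 separate loci of chromosome 4 with the same description. The 2 Col1a2 values were added together in each library, since the share of reads that each copy received is uncertain.

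RNA came from nucleus pulposus tissue of rats aged 2, 10 or 20 months, with 3 libraries at each age. The study paired sequencing of poly(A) RNA with immunoprecipitation of N6-methyladenosine RNA, and only the input libraries, made without immunoprecipitation, were analysed here. Strain, sex and treatment are not named in the labels used here. Nothing states how many rats gave the 3 libraries of an age, so p-values measure the spread between libraries, which may be technical. Levels are FPKM, fragments scaled to transcript length and to the total of each library, and can be compared between genes. In bulk tissue, fewer cells of a type and less RNA per cell cannot be told apart.

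Fibrillar collagens are built from long triple-helical chains that are hydroxylated, glycosylated and folded in the endoplasmic reticulum, trimmed outside the cell, and packed side by side into banded fibrils. Type I collagen, made of Col1a1 and Col1a2 chains, is the main fibril of bone, tendon and the outer annulus of the disc. Type III is a homotrimer of Col3a1 that mixes into type I fibrils, and type V, made mainly of Col5a1 and Col5a2 chains, starts fibrils and limits their diameter. Type VI is different in kind: Col6a1, Col6a2 and Col6a3 chains join into beaded microfilaments that surround cells, and in cartilage and disc they form the pericellular matrix.

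The chains lie on 5 chromosomes in the coordinates of the files (build not given in the sources used here). Col6a1 (chr20:12658065-12675561) and Col6a2 (chr20:12773427-12801180) are neighbours on the plus strand of chromosome 20. Col3a1 (chr9:52023295-52059217, plus strand) and Col5a2 (chr9:52092511-52238564, minus strand) are neighbours on chromosome 9, and Col6a3 (chr9:97926787-98004546, minus strand) lies farther along it. Col1a1 (chr10:82745801-82762789) and Col5a1 (chr3:6430201-6578882) are on the plus strand, as are the Col1a2 loci (chr4:29529854-29564768 and chr4:31534225-31569151). The log2 levels of the neighbours Col3a1 and Col5a2 had a Pearson r of 0.95 over the 9 libraries, which share age groups and include 1 library that was high in both.

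Start-site windows of 250 bases before to 50 bases after the gene start were given by RefSeq (GRCr8) for 5 of the 8 chains, Col1a2, Col5a1, Col5a2, Col6a1 and Col6a3. Those for Col1a1, Col3a1 and Col6a2 are not used here. Col1a2 is printed as the type I chain that differed most between ages among the chains with a window, and Col6a1 and Col6a3 as type VI chains that fell at both older ages relative to 2 months, each read in the direction of transcription. Capitals mark matches on either strand to the CCAAT box, to the TATAAA box, to the Sp1 sequence GGGCGG, to the Smad sequence CAGAC, to the E-box CACCTG and to the AP-1 sequence TGACTCA, and no 2 matches overlap in these windows.
Col1a2, chr4:33518307-33518606, plus strand: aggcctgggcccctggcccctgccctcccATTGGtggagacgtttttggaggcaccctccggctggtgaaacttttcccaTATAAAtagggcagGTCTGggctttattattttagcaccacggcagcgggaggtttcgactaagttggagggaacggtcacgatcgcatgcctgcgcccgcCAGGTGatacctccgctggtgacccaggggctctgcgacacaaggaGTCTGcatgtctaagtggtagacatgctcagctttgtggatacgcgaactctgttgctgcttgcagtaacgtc
Col6a1, chr20:11905440-11905739, plus strand: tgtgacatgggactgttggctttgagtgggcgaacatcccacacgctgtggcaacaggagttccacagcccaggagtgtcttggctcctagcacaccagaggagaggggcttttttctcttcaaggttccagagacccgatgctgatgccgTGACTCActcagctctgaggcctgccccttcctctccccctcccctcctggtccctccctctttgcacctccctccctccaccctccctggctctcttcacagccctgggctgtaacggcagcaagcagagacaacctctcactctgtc
Col6a3, chr9:98886909-98887208, minus strand: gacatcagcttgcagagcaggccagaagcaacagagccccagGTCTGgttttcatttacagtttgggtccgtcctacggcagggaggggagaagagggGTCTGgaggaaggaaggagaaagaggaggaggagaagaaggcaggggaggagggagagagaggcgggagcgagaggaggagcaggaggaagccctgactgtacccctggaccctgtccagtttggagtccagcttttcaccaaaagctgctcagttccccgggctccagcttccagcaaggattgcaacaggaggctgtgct
The Col1a2 window held TATAAA at -170, a CCAAT on the reverse strand at -221, a CACCTG on the reverse strand at -69 and a CAGAC on the reverse strand at -156 and at -23, counted from the start site. The Col6a1 window held TGACTCA at -99 and none of the other 5 motifs. The Col6a3 window held CAGAC on the reverse strand at -208 and at -152. Col5a1 had GGGCGG at -127, and Col5a2 had CAGAC at 3 places. Among all 33469 windows of the same length, CAGAC occurred in 50.1%, CCAAT in 37.5%, GGGCGG in 33.1%, CACCTG in 18.8%, TATAAA in 14.2% and TGACTCA in 4.63%. A match describes the letters of a window and marks neither a bound site nor a cause. CAGAC was shared by the Col1a2, Col5a2 and Col6a3 windows, and no other searched motif occurred in more than 1 of the 5.

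The estimated bases on transcripts came to 4.77 to 5.04 gigabases in the 2-month libraries, 4.35 to 4.74 gigabases in the 10-month libraries and 3.53 to 4.90 gigabases in the 20-month libraries, and 11027 to 11447 genes reached an FPKM of 1 in each. The commonest read length recoverable from the transcript table was 132 bases at 2 and at 10 months and 141 bases at 20 months, so that the 20-month age and this difference in the libraries cannot be told apart. Of the 11 notochordal and nucleus pulposus markers in the table, Cd24, Krt8, Krt18, Krt19, Lgals3 and Tbxt were between 878 and 5591 FPKM in all 9 libraries. The age differences of these markers are counted below with those of other cells. Cdh2 was at 82.3 to 125 FPKM and Ca12 at 3.54 to 11.1 FPKM, while Shh, Foxf1 and Pax1 were at 0 to 0.431 FPKM. Replicate 3 at 20 months stood apart: the 9 listed skeletal muscle genes in the table summed to 32.3 to 35.3 FPKM at 2 months, to 22.9 to 24.5 FPKM at 10 months, and to 5.53, 5.58 and 306 FPKM in replicates 1, 2 and 3 at 20 months. All 9 muscle genes, of which 7 were tested, were highest in that library, as were 8.28% of all genes tested. Tests of the 7 tested chains and counts of the gene lists that rest on the 20-month libraries are therefore also given without it, and most 20-month levels of the chains are given by library. FPKM scales each library to its own total, and the median gene differed by 0.04 (log2) between 10 and 2 months, by -0.20 between 20 and 2 months and by -0.23 between 20 and 10 months; a median-of-ratios scaling of the same table removes these shifts.

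**Figure D1:**
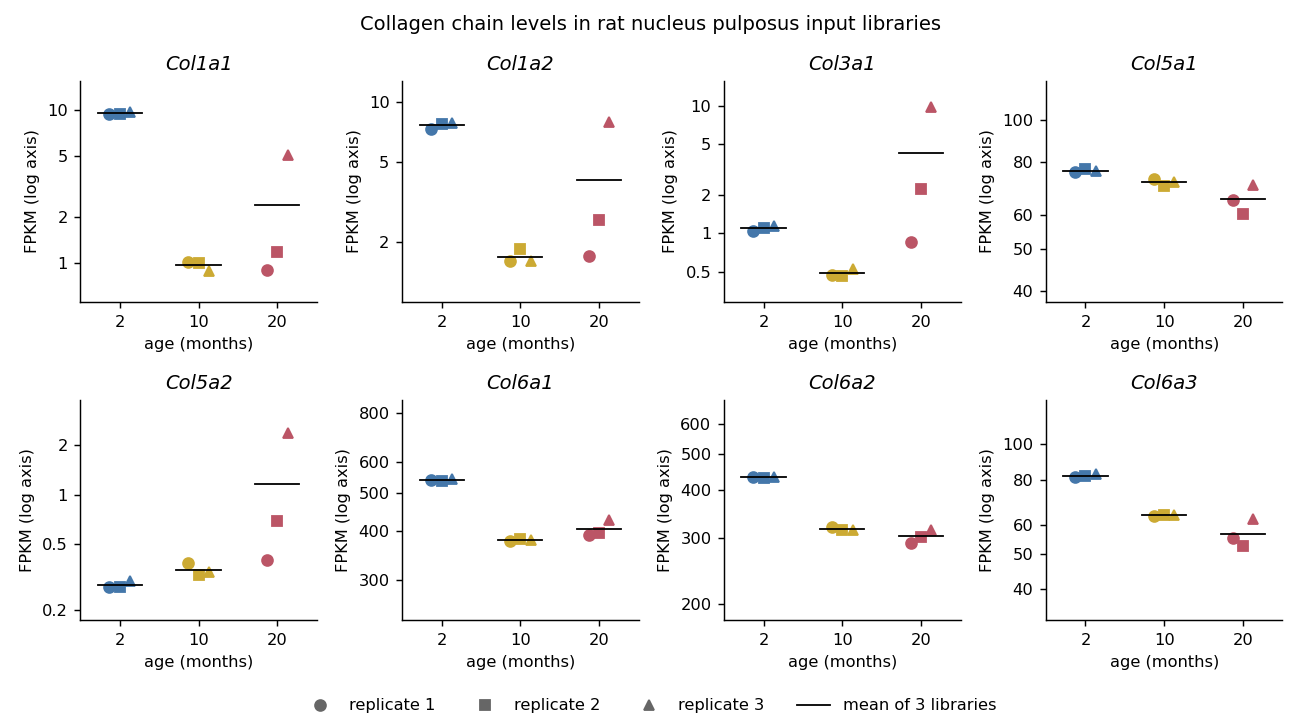
FPKM of each collagen chain (vertical log axis) in the 3 input libraries of each age (horizontal axis, months), with symbols for the replicate and a line for the mean of 3 libraries. Col1a1 and Col1a2 are 9.80 and 4.53 times lower at 10 than at 2 months, type VI chains and Col5a1 differ far less, and 20-month replicate 3 lies above the other 20-month libraries in every panel.

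In FPKM, which is per length, Col6a1 and Col6a2 were the most abundant of the 8 chains. At 2 months Col6a1 averaged 539.3 FPKM and ranked 123 among all genes, followed by Col6a2 at 433, Col6a3 at 81.9, Col5a1 at 76.3, Col1a1 at 9.47, Col1a2 at 7.65, Col3a1 at 1.10 and Col5a2 at 0.283 FPKM, and the libraries of neighbouring chains in this order did not overlap. At 10 months Col5a1 stood above Col6a3 and Col1a2 above Col1a1, again with no overlap between neighbours. At 20 months the libraries of Col5a1 overlapped those of Col6a3, and the ranges of Col1a1, Col1a2, Col3a1 and Col5a2 overlapped one another. Together the 8 chains summed to 1149 ± 5.31 FPKM at 2 months, 835 ± 2.04 FPKM at 10 months and 840.1 ± 51.8 FPKM at 20 months, each with the SD over 3 libraries, where the 20-month replicates were at 805, 815 and 899.6 FPKM.

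Type I collagen had the largest differences among the 7 tested chains between 10 and 2 months. Col1a1, the more abundant chain of the type I molecule, had 9.35, 9.43 and 9.62 FPKM at 2 months, 1.008, 0.9999 and 0.8909 FPKM at 10 months, and 0.895, 1.18 and 5.09 FPKM at 20 months. Every 10-month library was below every 2-month library, and at 20 months replicates 1 and 2 stayed near the 10-month level while replicate 3 was several times higher. Col1a1 averaged 0.966 ± 0.0654 FPKM at 10 months and 9.47 ± 0.141 FPKM at 2 months, with the SD over 3 libraries, a 9.80-fold lower level at 10 months; on the log2(FPKM + 1) scale used for the tests, which understates changes of low values, it fell by 2.41 ± 0.36 (SE; limma adjusted p = 0.00133). As for every chain, the SE comes from 1 fit of the 3 ages. It therefore also holds the spread of the 20-month Col1a1 libraries (SD 2.34 FPKM). Only 5 of the 11707 genes tested had a more negative difference. The estimated fragments behind these values were 88.4 to 105 per library at 10 months and 993 to 1040 at 2 months.

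Col1a2, the second chain of type I, had 7.31, 7.77 and 7.87 FPKM at 2 months, 1.61, 1.85 and 1.61 FPKM at 10 months, and 1.71, 2.57 and 7.97 FPKM at 20 months. The pattern was near that of Col1a1, but 20-month replicate 2 stood further above the 10-month libraries and replicate 3 reached the 2-month level. Between 10 and 2 months the summed Col1a2 level was 4.53-fold lower and fell by 1.69 ± 0.36 on the log2 scale (limma adjusted p = 0.00739), a difference ranked 13 from the most negative. Kept apart, the copies differed by -1.55 ± 0.32 and -1.17 ± 0.29 (limma adjusted p = 0.00635 and 0.0152). Since the share of reads that each copy received is uncertain, these tests cannot show that each copy fell on its own. In the copy listed first, either of its 2 transcripts was at 0 in several libraries in which the other was not, so values of single Col1a2 transcripts are not given.

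At 20 months Col1a1 fell by 1.84 ± 0.36 relative to 2 months (limma adjusted p = 0.00159), with no overlap between the ages, and by 2.37 ± 0.08 without 20-month replicate 3 (limma adjusted p = 3.51e-07). Col1a2 differed by -0.97 ± 0.36 between 20 and 2 months, which passed the threshold (limma adjusted p = 0.0365) although the libraries overlapped. Without 20-month replicate 3 its difference was -1.48 ± 0.11 (limma adjusted p = 1.53e-05), while a median-of-ratios scaling of all 9 libraries gave -0.78 ± 0.37 and ended the call (limma adjusted p = 0.0908). Leaving out any single library other than 10-month replicate 2 or 20-month replicate 3 also ended it (limma adjusted p = 0.0506 to 0.118). Between 20 and 10 months neither chain passed: Col1a1 differed by 0.58 ± 0.36 (limma adjusted p = 0.189) and Col1a2 by 0.72 ± 0.36 (limma adjusted p = 0.103). Without 20-month replicate 3 these differences were 0.05 ± 0.08 and 0.21 ± 0.11 (limma adjusted p = 0.620 and 0.141), and without 20-month replicate 1 Col1a2 passed at 1.07 ± 0.31 (limma adjusted p = 0.0168).

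Type III collagen was scarce, and it was the only chain to pass as higher at an older age on the deposited scaling. Col3a1 had 1.04, 1.10 and 1.15 FPKM at 2 months, 0.474, 0.463 and 0.529 FPKM at 10 months, and 0.851, 2.22 and 9.81 FPKM at 20 months. The 10-month libraries were the lowest of the 9, the 20-month libraries were all above them, and at 20 months replicate 3 was far above the other libraries. The 20-month and 10-month means were 4.29 ± 4.82 and 0.489 ± 0.0354 FPKM (SD, n = 3 each), and Col3a1 rose by 1.43 ± 0.51 on the log2 scale at 20 months (limma adjusted p = 0.0336). Without 20-month replicate 3 the rise was 0.71 ± 0.20 (limma adjusted p = 0.0152), and the call was lost with a pseudocount of 5, with no filter on low values or with only these 2 ages fitted (limma adjusted p = 0.0656, 0.0693 and 0.0662), and also with any of the 3 10-month libraries left out (limma adjusted p = 0.0699 to 0.0744).

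Col3a1 at 10 months averaged 0.489 FPKM, against 1.10 FPKM at 2 months, with no overlap, but the difference of -0.50 ± 0.51 did not pass when all ages shared a spread (limma adjusted p = 0.499) and passed when only these ages were fitted (limma adjusted p = 0.00251). Its 20-month and 2-month libraries overlapped and the difference of 0.93 ± 0.51 did not pass (limma adjusted p = 0.132). Leaving out 20-month replicate 3 made that difference 0.22 ± 0.20 (limma adjusted p = 0.365), and leaving out 20-month replicate 1 made it 1.49 ± 0.41, which passed (limma adjusted p = 0.0121). Over all 3 ages the moderated F test gave Col3a1 an adjusted p of 0.0713 in limma, and 0.0258 without 20-month replicate 3.

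The type V chains differed widely in level, with Col5a1 far above Col5a2 in every library. Col5a1, the chain found in nearly all type V molecules, had 75.7, 77.0 and 76.1 FPKM at 2 months, 72.8, 70.1 and 71.8 FPKM at 10 months, and 65.0, 60.4 and 70.6 FPKM at 20 months. Each 10-month library was slightly below each 2-month library, and the 20-month values overlapped the 10-month ones. Col5a1 differed by -0.09 ± 0.05 between 10 and 2 months and did not pass (limma adjusted p = 0.216), whereas it fell by 0.22 ± 0.05 between 20 and 2 months (limma adjusted p = 0.00386) and by 0.13 ± 0.05 between 20 and 10 months (limma adjusted p = 0.0459). Both 20-month calls depend on the scaling: with median-of-ratios scaling the differences were 0.0042 ± 0.05 and 0.13 ± 0.05 (limma adjusted p = 0.951 and 0.0571). The call between 20 and 10 months was also lost when any library other than 20-month replicate 3 was left out (limma adjusted p = 0.0641 to 0.128). Leaving out 20-month replicate 3 gave falls of 0.28 ± 0.04 relative to 2 months and of 0.19 ± 0.04 relative to 10 months (limma adjusted p = 2.92e-04 and 0.00276).

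Col5a2, the partner chain of Col5a1, had 0.276, 0.275 and 0.298 FPKM at 2 months, 0.387, 0.325 and 0.341 FPKM at 10 months, and 0.398, 0.693 and 2.38 FPKM at 20 months. It reached an FPKM of 1 in 1 library, 20-month replicate 3, and so was left out of the tests, which asked for an FPKM of 1 in 3 libraries. The values rested on 22.3 to 24.2 estimated fragments per library at 2 months, 26.1 to 28.6 fragments at 10 months and 22.4 to 185 fragments at 20 months. In a fit with no filter Col5a2 differed by 0.07 ± 0.28 between 10 and 2 months, 0.64 ± 0.28 between 20 and 2 months and 0.57 ± 0.28 between 20 and 10 months, none of which passed (limma adjusted p = 0.913, 0.101 and 0.152).

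The 3 type VI chains fell by 22.1 to 29.7% at 10 months relative to 2 months, with close replicates. Col6a1 had 539.9, 536 and 542 FPKM at 2 months, 377, 381 and 379.6 FPKM at 10 months, and 391, 394 and 427 FPKM at 20 months. Both older ages lay wholly below 2 months, and the 20-month libraries lay just above the 10-month ones. Between 10 and 2 months Col6a1 fell by 0.51 ± 0.04 (limma adjusted p = 3.12e-05), a level 29.7% lower. Relative to 2 months it fell by 0.42 ± 0.04 at 20 months (limma adjusted p = 8.73e-06), or by 0.46 ± 0.02 without 20-month replicate 3 (limma adjusted p = 1.69e-06). Between 20 and 10 months the difference of 0.09 ± 0.04 did not pass (limma adjusted p = 0.0529), though it did without 20-month replicate 1 or 2 (limma adjusted p = 0.0218 and 0.0425).

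Col6a2, which joins Col6a1 and Col6a3 in the type VI monomer, had 433, 431 and 434 FPKM at 2 months, 319.9, 315 and 315 FPKM at 10 months, and 290.3, 302 and 315 FPKM at 20 months. Its 20-month libraries were at or below the 10-month level and all were below the 2-month level. Col6a2 fell by 0.45 ± 0.03 between 10 and 2 months and by 0.52 ± 0.03 between 20 and 2 months (limma adjusted p = 3.42e-05 and 1.46e-06), and between 20 and 2 months by 0.55 ± 0.03 without 20-month replicate 3 (limma adjusted p = 1.56e-06). The difference of -0.07 ± 0.03 between 20 and 10 months did not pass (limma adjusted p = 0.0996) and passed without 20-month replicate 3, at -0.10 ± 0.03 (limma adjusted p = 0.0128).

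Col6a3, the longest type VI chain, had 81.2, 81.8 and 82.8 FPKM at 2 months, 63.62, 63.98 and 63.98 FPKM at 10 months, and 55.4, 52.6 and 62.3 FPKM at 20 months. It was the type VI chain whose 3 ages were separated in one direction, with all 20-month libraries below all 10-month libraries and those below all 2-month libraries. Col6a3 fell by 0.35 ± 0.05 between 10 and 2 months, by 0.53 ± 0.05 between 20 and 2 months and by 0.17 ± 0.05 between 20 and 10 months (limma adjusted p = 0.00146, 2.85e-05 and 0.0201). With 20-month replicate 3 left out it fell by 0.59 ± 0.03 relative to 2 months (limma adjusted p = 2.34e-06), and its 20 against 10 month difference was -0.24 ± 0.03 (limma adjusted p = 3.30e-04), and with 10-month replicate 2 or 3 or 20-month replicate 1 or 2 left out it no longer passed (limma adjusted p = 0.0510 to 0.0582).

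**Figure D2:**
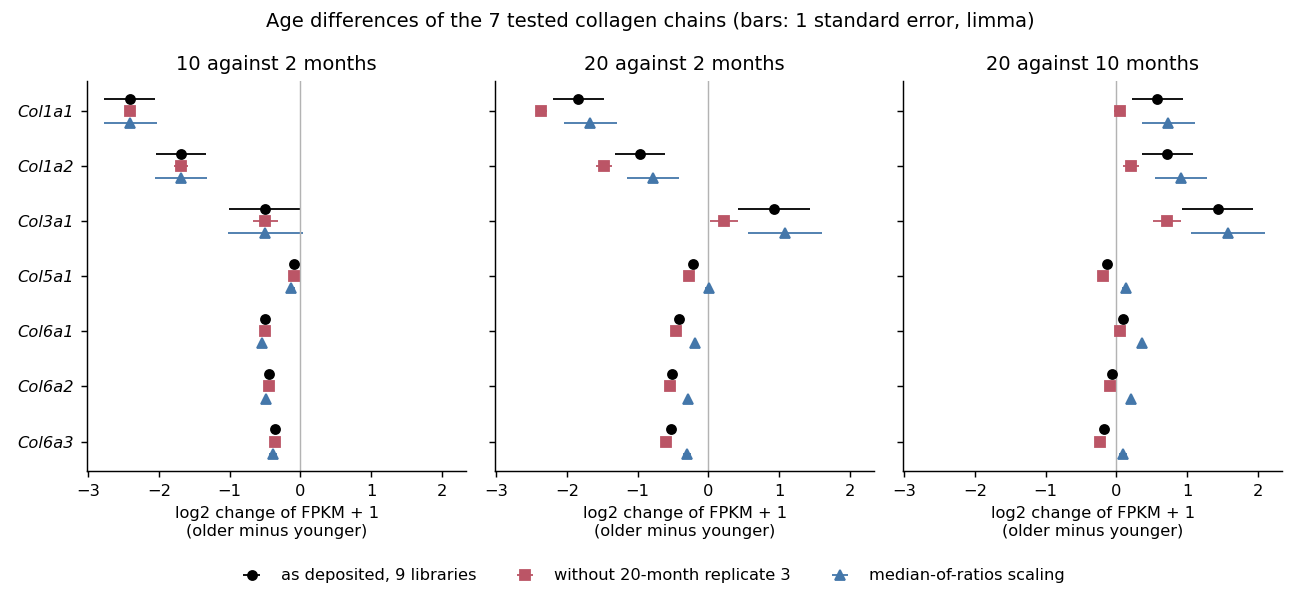
Difference in log2(FPKM + 1), older minus younger (horizontal axis), of the 7 tested chains in each comparison, with 1 standard error from limma, for the deposited values, without 20-month replicate 3, and with median-of-ratios scaling. The values nearly coincide between 10 and 2 months, and the signs of the small Col5a1, Col6a2 and Col6a3 differences between 20 and 10 months depend on the scaling.

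Between 10 and 2 months 5 of the 7 tested chains fell and 0 rose, while 30.3% of all tested genes passed the same threshold (adjusted p under 0.05), 11.4% as lower and 19% as higher. With median-of-ratios scaling 5 of 7 fell again and 0 rose, against 14.5% of genes lower and 15.1% higher, and without 20-month replicate 3 the counts were also 5 and 0, against 13.4% and 21.3%. All 7 had every 10-month library below every 2-month library, a pattern found in 21.5% of tested genes. Col5a2, which missed the filter, went the other way, at 0.325 to 0.387 FPKM at 10 months and 0.275 to 0.298 FPKM at 2 months. Col3a1 was under 1 FPKM in every 10-month library and passed the filter through the other ages. The chains' median difference was -0.50, against 0.04 over all genes tested. Fitting these ages alone gave 7 chains lower. Keeping the Col1a2 copies apart gave 6, since each of the 2 copies was then counted, and added no further chain.

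Comparing 20 with 2 months, 6 of 7 chains fell and 0 rose, but 68.2% of all tested genes passed as well, 49.6% as lower and 18.6% as higher, and 5 chains, against 51% of genes, had every 20-month library below every 2-month library. Relative to the median gene, the differences were -1.64 for Col1a1, -0.77 for Col1a2, 1.13 for Col3a1, -0.03 for Col5a1, -0.22 for Col6a1, -0.32 for Col6a2 and -0.33 for Col6a3. With median-of-ratios scaling 4 of 7 fell, Col1a1 and the 3 type VI chains, where 31.2% of all genes fell and 31.1% rose. The type VI differences on that scaling were -0.19 ± 0.04 for Col6a1, -0.29 ± 0.04 for Col6a2 and -0.30 ± 0.06 for Col6a3 (limma adjusted p = 0.00264, 1.48e-04 and 0.00137). Leaving out 20-month replicate 3 gave 6 chains lower and 0 higher, against 48.3% and 17.9% of genes.

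Between 20 and 10 months 2 chains fell (Col5a1 and Col6a3) and 1 rose (Col3a1), where 64.7% of all tested genes passed, 53.3% as lower and 11.4% as higher. Col6a3 alone had every 20-month library below every 10-month library, as did 55.3% of genes, and Col3a1 and Col6a1 had every 20-month library above, as did 12.6%. The median difference of the chains was 0.09, against -0.23 over all genes. With median-of-ratios scaling 0 chains fell and 3 rose, Col3a1, Col6a1 (0.36 ± 0.04, limma adjusted p = 9.88e-05) and Col6a2 (0.20 ± 0.04, limma adjusted p = 0.00183), where 25.7% of all genes fell and 26.8% rose. Without 20-month replicate 3, 3 chains fell and 1 rose, where 52.2% of genes fell and 11.2% rose. The moderated F test over the 3 ages passed for 6 of the 7 chains, all but Col3a1, and for 75.4% of all genes, and without 20-month replicate 3 it passed for all 7 and for 74% of genes.

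Ratios of chains within a library do not depend on how libraries are scaled to each other. The ratio of Col3a1 to Col1a1 was 0.112, 0.117 and 0.119 at 2 months, 0.470, 0.463 and 0.594 at 10 months, and 0.951, 1.89 and 1.93 at 20 months. The 3 ages did not overlap, and each older age had relatively more Col3a1. An exact permutation test of the spread between ages over 1680 arrangements gave p = 0.00357, the smallest it can give (adjusted over 6 ratios, 0.00536). When 20-month replicate 3 was left out, this ratio and the ratios of Col1a2 to Col1a1, Col5a2 to Col5a1, Col6a2 to Col6a1 and Col6a3 to Col6a1 each gave p = 0.00357 before adjustment, and that of Col6a3 to Col6a2 gave p = 0.0179 (exact permutation tests). With that library left out there are 560 arrangements, and 0.00357 is again the smallest p that the test can give.

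The ratio of Col1a2 to Col1a1 averaged 0.808 ± 0.0228 at 2 months, 1.75 ± 0.136 at 10 months and 1.89 ± 0.308 at 20 months, with the SD over 3 libraries (exact permutation p = 0.0179, adjusted 0.0214). At 2 months the Col1a1 chain was the more abundant in all 3 libraries, and in all 6 older libraries Col1a2 was, including 20-month replicate 3 at 1.57. This ratio uses the summed Col1a2 copies. The ratio of Col5a2 to Col5a1 was 0.00371 ± 1.83e-04 at 2 months, 0.0049 ± 3.65e-04 at 10 months, and 0.00613, 0.0115 and 0.0336 in replicates 1, 2 and 3 at 20 months, without overlap between ages (exact permutation p = 0.00357, adjusted 0.00536).

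Within type VI the chain proportions differed between ages by small amounts. The ratio of Col6a2 to Col6a1 was 0.803, 0.803 and 0.802 at 2 months, 0.848, 0.826 and 0.829 at 10 months, and 0.743, 0.766 and 0.738 at 20 months. The 10-month libraries were the highest and the 20-month libraries the lowest, with no overlap (exact permutation p = 0.00357, adjusted 0.00536). The ratio of Col6a3 to Col6a1 had the same order, at 0.152 ± 0.00138, 0.168 ± 3.93e-04 and 0.140 ± 0.00630 at 2, 10 and 20 months (exact permutation p = 0.00357, adjusted 0.00536). The ratio of Col6a3 to Col6a2, at 0.189 ± 0.00179, 0.202 ± 0.00253 and 0.188 ± 0.0120, did not pass (exact permutation p = 0.121).

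**Figure D3:**
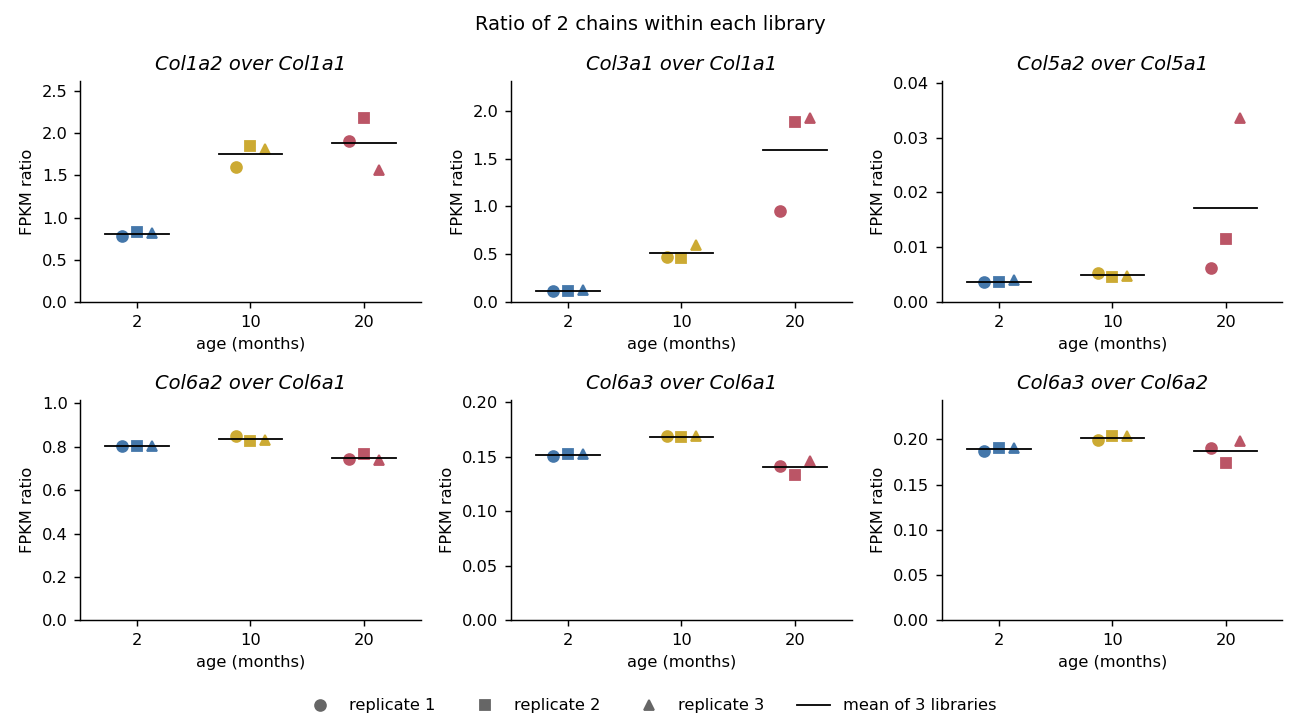
Ratio of the FPKM of 2 chains in each library (vertical axis from 0) at each age (months), with a line for the mean of 3 libraries. Col1a2 over Col1a1 and Col3a1 over Col1a1 are higher at 10 and 20 months than at 2 months, and the type VI ratios to Col6a1 are highest at 10 and lowest at 20 months.

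Col5a1 and Col6a3 were the chains with a second transcript of appreciable level. For Col6a3 the transcript ENSRNOT00000026719, which has 44 exons and 9858 bases and starts downstream of the main transcript (ENSRNOT00000077924, 39 exons), made up 7.58, 8.05 and 7.75% of the gene's transcript FPKM at 2 months, 10.5, 10.2 and 10.1% at 10 months, and 9.84, 10.3 and 9.89% at 20 months. All 6 older libraries were above all 2-month libraries (exact permutation p = 0.0107, adjusted over the 2 genes 0.0214; 0.0214 before adjustment without 20-month replicate 3). This transcript averaged 7.68 ± 0.260 FPKM at 2 months, 7.87 ± 0.110 FPKM at 10 months and 6.83 ± 0.495 FPKM at 20 months, and the main transcript 90.8 ± 0.937 FPKM, 68.8 ± 0.403 FPKM and 61.3 ± 5.50 FPKM in the same order of ages, with the SD over 3 libraries.

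For Col5a1 the 64-exon transcript ENSRNOT00000086352 made up 16.3, 14.5 and 17.7% at 2 months, 18.3, 19.4 and 18.2% at 10 months, and 13.2, 14.2 and 24.0% at 20 months. The 20-month libraries stood at both ends of the range and the ages did not pass a test (exact permutation p = 0.750), whereas without 20-month replicate 3 they did (exact permutation p = 0.0393). These transcript comparisons were chosen after the values had been seen, and shares of transcripts that overlap in most of their exons rest on the estimates in the deposited table.

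**Figure D4:**
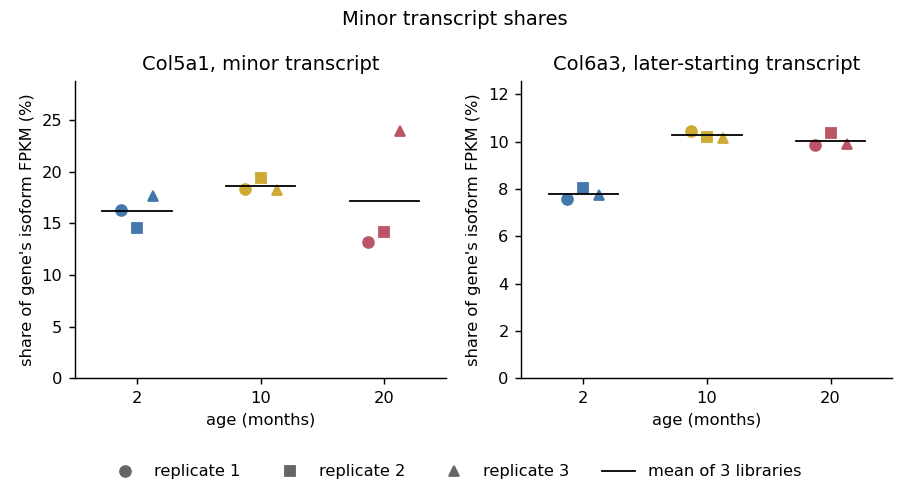
Share of each gene's transcript FPKM (vertical axis, percent) held by the minor transcript of Col5a1 (left) and of Col6a3 (right) in each library by age (months), with a line for the mean of 3 libraries. The Col6a3 share is 7.58 to 8.05% at 2 months and 9.84 to 10.5% in all older libraries.

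Among the summed FPKM of the 38 collagen genes in the table, the 3 type VI chains took the largest share at every age, 68.8 ± 0.277% at 2 months, 75.3 ± 0.224% at 10 months and 74.3 ± 2.18% at 20 months, with the SD over 3 libraries. At 20 months the type VI share was 72.6, 76.8 and 73.6% in replicates 1, 2 and 3, so that replicate 3 lay between the others. Type I took 1.117 ± 0.0247% at 2 months, 0.263 ± 0.0178% at 10 months and 0.257, 0.384 and 1.196% in the 20-month libraries. Type V took 4.997 ± 0.0772% at 2 months, 7.13 ± 0.127% at 10 months and 6.45, 6.26 and 6.69% in the 20-month libraries. The share of type VI was larger at 10 than at 2 months although its chains fell. Col2a1, the cartilage fibril chain, made up 11.2 ± 0.245% at 10 months and 19.8 ± 0.245% at 2 months.

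The counts of the gene lists that follow stand against the shares of all tested genes: 11.4% lower and 19% higher between 10 and 2 months, 49.6% and 18.6% between 20 and 2 months, and 53.3% and 11.4% between 20 and 10 months. With median-of-ratios scaling those shares were 14.5% and 15.1%, 31.2% and 31.1%, and 25.7% and 26.8%. Among the other fibrillar collagens, 3 of 6 tested genes fell and 0 rose between 10 and 2 months, with Col2a1 at 113 against 304 FPKM (-1.42 ± 0.09, limma adjusted p = 2.52e-05) and Col11a1, its partner in cartilage fibrils, at 16.7 against 23.1 FPKM (-0.44 ± 0.04, limma adjusted p = 5.14e-05). At 20 months 4 of 6 fell and 0 rose relative to 2 months, with Col11a1 at 11.3 against 23.1 FPKM (-0.96 ± 0.04, limma adjusted p = 9.09e-08), and 4 of 6 (Col11a1, Col24a1, Col5a3 and Col27a1) fell and 0 rose relative to 10 months, shares not far from the 49.6% and 53.3% of all genes. With 20-month replicate 3 left out these counts were 3 lower and 1 higher, 5 and 0, and 3 and 0 in the order of the comparisons. Median-of-ratios scaling gave 3 and 0, 2 and 0, and 1 and 1. Col11a1 without that library differed by -0.97 ± 0.04 between 20 and 2 months. Col24a1, the 1 gene called higher without it, was at 1.15 to 1.43 FPKM at 10 months. It was under 1 FPKM in every 2-month library and in 20-month replicates 1 and 2. Its calls therefore rest in part on the filter of 1 FPKM, which it passed mainly through the 10-month libraries. The other type VI chains Col6a4, Col6a5 and Col6a6 were not among the genes of the table. Of 3 tested fibril-associated collagens, 1 (Col9a3, -0.48 ± 0.15) fell and 0 rose between 10 and 2 months, 0 fell and 1 (Col16a1, 0.36 ± 0.09) rose between 20 and 2 months, and 1 (Col20a1) fell and 1 (Col16a1) rose between 20 and 10 months. When 20-month replicate 3 was left out the fall of Col20a1 did not pass, and the other counts were the same, with Col16a1 at 0.24 ± 0.05 between 20 and 2 months.

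Of the genes that process and crosslink collagen chains, 11 of 22 tested fell and 3 rose between 10 and 2 months, against 11.4% and 19% of all genes, with a median difference of -0.16, against 0.04 over all genes. Those with the smallest adjusted p were Colgalt2, which adds galactose to collagen hydroxylysine, at 12.3 against 26.3 FPKM (-1.04 ± 0.06, limma adjusted p = 1.37e-05), the lysyl hydroxylase Plod1 (-0.37 ± 0.03), the lysyl oxidase relative Loxl3 (-0.48 ± 0.04) and the collagen chaperone Serpinh1 (-0.44 ± 0.05). Relative to 2 months 17 of 22 fell and 3 rose at 20 months, with Colgalt2 at 6.64 against 26.3 FPKM (-1.84 ± 0.06, limma adjusted p = 4.95e-08), and between 20 and 10 months 17 fell and 3 rose. In these comparisons 49.6% and 53.3% of all genes fell. The 3 that rose between 20 and 2 months were P3h3, P4ha2 and Loxl1, all enzymes of the same list. The medians of the list were -0.41 and -0.30 in these comparisons, against -0.20 and -0.23 over all genes. The counts without 20-month replicate 3 were 11 lower and 3 higher, 16 and 4, and 17 and 4. The medians were then -0.44 and -0.30 in the 20-month comparisons, and Colgalt2 differed by -1.83 ± 0.07 between 20 and 2 months. With median-of-ratios scaling the counts were 12 and 3, 14 and 5, and 5 and 3.

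Among collagen receptors and uptake genes, 4 of 9 tested fell and 0 rose between 10 and 2 months, where 11.4% of all genes fell. The type VI binding proteoglycan Cspg4 was at 12.9 against 23.3 FPKM (-0.81 ± 0.04, limma adjusted p = 7.64e-06), and Antxr1, a receptor that binds type VI and type I collagen, was at 6.93 against 14.3 FPKM (-0.94 ± 0.10, limma adjusted p = 2.91e-04). Itgb1, the shared subunit of the collagen-binding integrins, and Mrc2, which takes up collagen fragments, fell by 0.29 ± 0.03 and 0.31 ± 0.06. At 20 months 6 fell and 1 (Itga10) rose relative to 2 months, and between 20 and 10 months 4 fell and 0 rose, a smaller share than the 53.3% of all genes that fell, with Cspg4 at 12.7 against 12.9 FPKM (-0.01 ± 0.04, limma adjusted p = 0.775). Antxr1 fell between 20 and 10 months, by 0.83 ± 0.10 (limma adjusted p = 1.38e-04). Without 20-month replicate 3 the counts were 5 lower and 0 higher, 6 and 1, and 5 and 0, and Antxr1 differed by -0.96 ± 0.07 between 20 and 10 months. With median-of-ratios scaling they were 5 and 0, 6 and 3, and 3 and 2.

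Matrix proteins that bind collagen fibrils went in both directions. Between 10 and 2 months 7 of 11 tested fell and 1 rose: the falls included Bgn, a small proteoglycan that binds type I and type VI collagen, at 18.8 against 40.6 FPKM (-1.07 ± 0.11, limma adjusted p = 2.36e-04), Sparc (-0.59 ± 0.04), Fmod (-0.62 ± 0.06) and Fn1 (-0.37 ± 0.04). The single rise was Dcn, the relative of Bgn that binds type I fibrils, at 9.61, 10.2 and 9.64 FPKM at 10 months, against 2.40, 1.56 and 2.09 FPKM at 2 months (1.85 ± 0.45, limma adjusted p = 0.0148). At 20 months Dcn was at 13.8, 19.7 and 66.4 FPKM, all above both younger ages, and between 20 and 2 months it rose by 3.19 ± 0.45, or by 2.55 ± 0.16 without 20-month replicate 3 (limma adjusted p = 2.20e-04 and 4.64e-06). In all, 6 of the 11 fell and 4 rose between 20 and 2 months, and 4 fell and 3 rose between 20 and 10 months. Of all genes 49.6% and 53.3% fell and 18.6% and 11.4% rose. With 20-month replicate 3 left out, of 10 tested 7 fell and 3 (Dcn, Thbs1 and Thbs2) rose, 6 fell and 3 rose, and 4 fell and 2 rose. With median-of-ratios scaling 7 of 11 fell and 1 rose, 6 fell and 5 rose, and 1 fell and 6 rose. Thbs1 and Thbs2 were under 1 FPKM in every 2-month library, and Comp in every 2-month and 10-month library. They passed the filter of 1 FPKM only through older libraries, where they were high. Their rises in these counts therefore rest in part on that filter.

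Of the collagen-cleaving proteases Mmp14 and Ctsk were tested, and Mmp14, a membrane-bound collagenase, fell in each comparison, with means of 28.6 FPKM at 2 months, 22.8 FPKM at 10 months and 18.6 FPKM at 20 months. Ctsk, a collagen-degrading protease, passed in 0 comparisons, and without 20-month replicate 3 it fell between 20 and 10 months. With median-of-ratios scaling neither passed between 20 and 10 months. Among 18 tested regulators of collagen transcription, 1 fell and 3 rose between 10 and 2 months: the ligand Tgfb2 rose to 43.7 FPKM, against 24.3 FPKM at 2 months (0.82 ± 0.06, limma adjusted p = 3.86e-05), Nfyb and Smad3 rose by 0.21 ± 0.05 and 0.23 ± 0.07, and Tgfb1 fell by 0.50 ± 0.05. At 20 months 9 fell and 1 (Tgfb2, 1.28 ± 0.06) rose relative to 2 months, and 11 fell and 1, again Tgfb2, rose relative to 10 months. The shares that fell were near the 49.6% and 53.3% of all genes. These counts without 20-month replicate 3 were 1 lower and 4 higher, 9 and 2, and 10 and 1, with Tgfb2 at 1.26 ± 0.07 between 20 and 2 months. On median-of-ratios scaling they were 1 and 3, 6 and 5, and 5 and 2.

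The genes whose log2 levels followed Col1a1 most closely over the 9 libraries, among named genes with a mean of at least 5 FPKM, were Bgn and Dsc3 (Pearson r of 0.98 each), Blmh (0.98), Rhob (0.97) and Col6a1 (0.97). Those closest to Col6a1 were Zfpm2 (0.99), Ybx3 (0.99), Bgn (0.98), Fn1 (0.98) and Blmh (0.98). Within the chains r was 0.97 for Col1a1 with Col1a2, 0.96 for Col6a1 with Col6a2, 0.96 for Col6a2 with Col6a3 and 0.31 for Col1a1 with Col3a1. The 9 points are 3 ages of 3 libraries, so each r mainly reflects the 3 age means and 20-month replicate 3.

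Markers of some other cells, but not of all those listed, differed between the same libraries as the type I and type III chains. Of the 8 chains, Col1a2, Col3a1 and Col5a2 were highest in 20-month replicate 3, the library with the muscle genes, as were 4 of 8 fibroblast markers, 3 of 6 annulus and tendon markers and 6 of 16 collagen-binding matrix genes. Of all tested genes 8.28% were highest there. So were 3 of 11 nucleus pulposus markers, 1 of 8 endothelial and pericyte genes and 1 of 5 macrophage and leukocyte genes. Of the 7 cartilage, 6 bone cell, 4 osteoclast and 5 red blood cell genes 0 were. These list counts include genes that missed the filter, whereas the 8.28% covers tested genes only. Of the 8 fibroblast, 6 annulus and tendon and 16 collagen-binding matrix genes, 4, 3 and 11 were tested. The 8 fibroblast markers summed to 98.8 to 105 FPKM at 2 months, to 113 to 115 FPKM at 10 months, and to 122, 123 and 166 FPKM in the 20-month libraries. The 6 annulus and tendon markers in the table summed to 5.53 to 6.39 FPKM at 2 months, to 5.36 to 5.94 FPKM at 10 months, and to 9.001, 6.57 and 11.3 FPKM in the 20-month libraries. The tendon marker Tnmd was at 0 to 0.157 FPKM at 2 months and was listed at 0 in all 10-month and 20-month libraries. Of the 3 tested markers of this list, Prg4 averaged 0.724, 1.72 and 5.06 FPKM at 2, 10 and 20 months. Relative to 2 months Prg4 rose by 0.66 ± 0.16 at 10 months and by 1.79 ± 0.16 at 20 months (limma adjusted p = 0.013 and 1.05e-05). It was under 1 FPKM in every 2-month library, so these rises rest in part on the filter of 1 FPKM. Scx differed by -0.72 ± 0.11 between 20 and 2 months (limma adjusted p = 4.16e-04) and did not pass between 10 and 2 months. Thbs4 passed in neither of these comparisons. The part of these other cells in the 20-month collagen values was not tested.

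The 5 red blood cell genes in the table summed to 82.9 to 93.2 FPKM at 2 months, to 9.57 to 10.6 FPKM at 10 months and to 36.6 to 42.5 FPKM at 20 months, and 4 of 4 tested fell between 10 and 2 months. The 8 endothelial and pericyte genes summed to 17.1 to 17.9 FPKM at 10 months, against 25.3 to 26.1 FPKM at 2 months, of which Cspg4, also listed as a collagen receptor, made up 12.65 to 13.04 FPKM, against 23.2 to 23.5 FPKM. Of 4 tested fibroblast markers, Thy1 and Pi16 fell and Dcn rose between 10 and 2 months. Thy1 was at 0.194 to 0.529 FPKM at 10 months, against 1.52 to 2.17 FPKM at 2 months, and Pi16 averaged 2.14 against 2.75 FPKM. Thy1 reached 1 FPKM only at 2 months and so passed the filter only through that age, and its call as lower rests in part on this. Mfap5, the most abundant of the list, averaged 101 FPKM at 10 months, against 93.9 FPKM at 2 months, and did not pass (limma adjusted p = 0.206). The 4 osteoclast genes summed to 9.81 to 11.1 FPKM at 10 months, against 15.9 to 16.8 FPKM at 2 months, and the 7 cartilage genes, which include Col2a1, to 1023 to 1051 FPKM, against 1558 to 1594 FPKM. The 5 macrophage and leukocyte genes summed to 21.9997 to 23.13 FPKM at 10 months, against 19.2 to 19.8 FPKM at 2 months. Of the 3 tested, Csf1r rose, at 11.8 to 12.1 against 6.86 to 7.16 FPKM. Cd14 averaged 6.50 against 8.03 FPKM and Cd68 averaged 4.23 against 4.32 FPKM without passing, and Ptprc and Itgam were near 0. Of the 8 tested nucleus pulposus markers 6 fell and 0 rose between 10 and 2 months, against 11.4% and 19% of all genes. Their median difference was -0.38, against 0.04 over all genes. At 20 months 6 fell and 1 rose relative to 2 months, against 49.6% and 18.6%. Relative to 10 months 5 fell and 2 rose, against 53.3% and 11.4%. These counts were the same without 20-month replicate 3. With median-of-ratios scaling they were 6 and 0, 5 and 3, and 2 and 5. The part of all these cells in the 10 against 2 month collagen differences was not tested. Bone cell genes were near 0 in all libraries: 6 osteoblast and osteocyte markers summed to 0.309 to 0.578 FPKM at 2 months, to 0.298 to 0.442 FPKM at 10 months and to 0.144 to 0.312 FPKM at 20 months, with Bglap listed at 0 in all 20-month libraries.

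**Figure D5:**
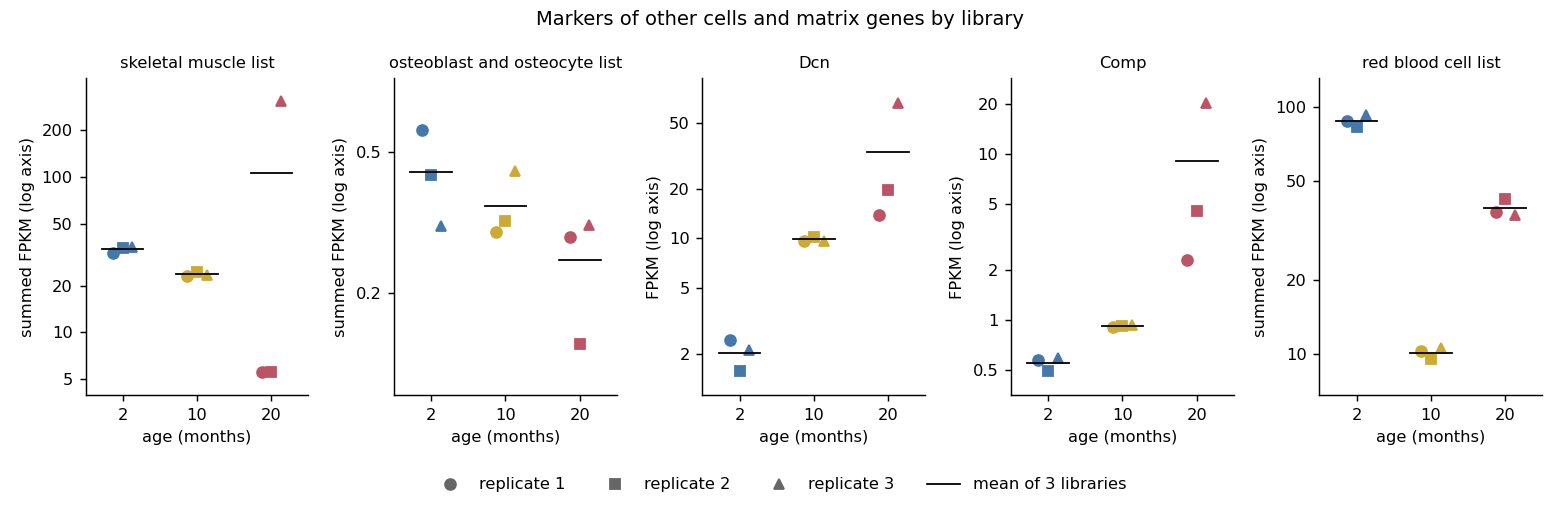
Summed FPKM of the skeletal muscle, bone cell and red blood cell lists and FPKM of the matrix genes Dcn and Comp (log axes) in each library by age (months), with a line for the mean of 3 libraries. The muscle list is highest in 20-month replicate 3 at 306 FPKM, the bone cell list is under 0.6 FPKM throughout, Dcn and Comp are higher at older ages in every library, and the red blood cell list is highest at 2 months.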

How the data were processed

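Input libraries of rat nucleus pulposus were read from 2 tables, a gene table of FPKM and a transcript table of FPKM and per-base coverage, both deposited by the authors. The FPKM and coverage values are as the authors deposited them; per the submitters' processing notes the authors' tools included HISAT2 2.0.4, StringTie 1.3.4d and cutadapt 1.9, and also edgeR and DESeq2. Their roles are not given, nor is the genome build in the sources used here. Ages were taken from the labels. No column of per-sample values was left unused (0).

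Fragments, aligned bases and read length were estimated from coverage and transcript length. The 11707 genes that reached 1 FPKM in 3 or more of the 9 libraries were fitted with limma 3.58.1 in R 4.3.3 on log2(FPKM + 1), with a mean-variance trend, 1 fit for the 3 ages, and Benjamini-Hochberg adjustment over all genes tested; calls were made at an adjusted p under 0.05 with no minimum fold. The procedure was tested on simulated data. Ratios of chains and transcript shares were tested by exact permutation. The number of fragments behind a value limits its precision and is known only as an estimate. Promoter windows are from RefSeq (GRCr8).

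The chains and the companion and marker lists were chosen with earlier results of these data known. All chains are named. Of each companion list at most 4 called genes per comparison, those with the smallest adjusted p, were named. So were the 5 tested genes of at least 5 FPKM on average that correlated best with Col1a1 and with Col6a1. Exceptions chosen after their values were seen were P3h3, P4ha2, Loxl1, Itga10, Dcn, Comp, Lum, Mmp2, Mmp13, Thbs1 and Thbs2. Chosen in the same way were Cspg4 between 20 and 10 months, Thy1, Pi16, Mfap5, Csf1r, Cd14, Cd68 and Bglap. Tnmd, Prg4, Scx and Thbs4 were also chosen in this way. Alternatives were the pseudocount, the low-value filter, 3 scalings, leaving out each library, array weights, no trend, fitting only the ages compared, a replicate block and, added after seeing the data, the Col1a2 copies kept apart.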

Additional observations from a re-analysis of the deposited data

How the results depend on the processing

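The 5 chains called lower between 10 and 2 months were called lower in each alternative that was run. The 20-month comparisons depended on the scaling and on single libraries. With median-of-ratios scaling the Col5a1 difference turned to 0.0042 between 20 and 2 months and 0.13 between 20 and 10 months, and the 20 against 10 month difference to 0.20 for Col6a2 and 0.093 for Col6a3. With quantile normalization the 20 against 10 month difference was -0.00099 for Col6a1 and 0.0011 for Col6a2.

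The number of chains called lower between 20 and 10 months (2) was 1 with no filter, with only these ages fitted or with no trend, and 0 with median-of-ratios scaling, quantile normalization or ribosomal protein and mitochondrial genes left out, and leaving out 1 library gave 0 to 3. The number called higher (1) was 0 with a pseudocount of 5, no filter or only these ages fitted, 2 with array weights or ribosomal protein and mitochondrial genes left out, 3 with median-of-ratios scaling, and 0 to 3 when 1 library was left out. Between 20 and 2 months leaving out 1 library gave 0 to 1 chains called higher. The spread of the Col6a3 to Col6a2 ratio over ages, 0.107 on the log2 scale, was 0.0923 to 0.146 when 1 library was left out, and it passed the exact permutation test without 20-month replicate 2 (p = 0.00357) or 3 (p = 0.0179). The 20 against 2 month call of Col1a2 was lost under 12 alternatives, and the 20 against 10 month calls of Col3a1, Col5a1 and Col6a3 under 6, 13 and 6, besides the changes of sign above. The cause of these changes was not tested.

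Over all genes the calls numbered 2490 to 5115 between 10 and 2 months (3550 as reported), 6033 to 8530 between 20 and 2 months (7985) and 5826 to 7783 between 20 and 10 months (7576). The replicate numbers did not pair the libraries, since deviations of same-numbered libraries correlated at -0.040 to 0.049. With a replicate block the calls numbered 3184, 7858 and 7466, with 5, 6 and 2 chains called lower and 0, 0 and 1 called higher, and the block changed no call of a chain. Col5a2, at 22.3 to 185 estimated fragments, and Col3a1 at 10 months, at 37.2 to 42.9, are the least precise of the chains.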

Other observations

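Among the collagen-cleaving proteases that missed the filter, Mmp13 and Mmp2 were highest in 20-month replicate 3. Mmp13, the collagenase of cartilage, had 0 to 0.154 FPKM at 2 months, 0 to 0.106 FPKM at 10 months, and 0.136, 1.39 and 6.20 FPKM in replicates 1, 2 and 3 at 20 months. Mmp2, a gelatinase, had 0.0704 to 0.159 FPKM at 2 months, 0.0183 to 0.123 FPKM at 10 months, and 0.174, 0.638 and 3.44 FPKM at 20 months. In Mmp13, Mmp2, Lum, Dcn, Comp, Col3a1 and Col5a2 alike, the lowest 20-month library was replicate 1 and the highest was replicate 3. These genes were chosen after their values were seen.

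Comp, a matrix protein that binds fibrillar collagens, had 0.494 to 0.592 FPKM at 2 months, 0.910 to 0.931 FPKM at 10 months, and 2.29, 4.51 and 20.3 FPKM at 20 months. It differed by 1.92 ± 0.54 between 20 and 10 months (limma adjusted p = 0.0121) and by 2.23 ± 0.54 between 20 and 2 months (limma adjusted p = 0.00533), and did not pass between 10 and 2 months (0.31 ± 0.54, limma adjusted p = 0.708). Comp reached 1 FPKM only in the 20-month libraries, so it passed the filter on low values only through the age where it was high. These tests therefore cannot show a rise on their own. Without 20-month replicate 3 Comp missed the filter. Lum, a small proteoglycan of collagen fibrils, had 0.0577 to 0.111 FPKM at 2 months, 0 to 0.162 FPKM at 10 months, and 0.334, 1.03 and 6.71 FPKM at 20 months.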
